A study of Mus musculus with 8 samples.

Results

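Interferon-stimulated genes are genes whose transcription is switched on when a cell senses interferon, and 36 of them were examined in tumor endothelial cells (TECs) of control and endFoxf1+/- mice. The genes were taken by symbol from the 33641 gene symbols of each library, and all 36 were present. They comprise 10 type I targets (the Ifit, Oas and Mx families), 8 gamma targets (6 Gbp genes, Irf1 and Igtp), 3 other immunity-related GTPases (Irgm1, Irgm2 and Iigp1), 3 factors of the interferon pathway (Stat2, Irf7 and Irf9) and 12 other induced genes. Lewis lung carcinoma (LLC) cells, a mouse lung tumor line, were injected into the left lung lobe, and CD45-CD31+ cells, which lack the leukocyte surface protein CD45 and carry the endothelial protein CD31, were sorted from the dissected tumors 21 days later. RNA-seq gave 4 control libraries, named C1 to C4, and 4 endFoxf1+/- libraries, named H1 to H4. In endFoxf1+/- mice (Pdgfb-CreER tg/+ with Foxf1 fl/+) a tamoxifen-activated Cre expressed from the Pdgfb promoter removes the first exon of 1 Foxf1 allele, and the labels describe the other group only as control, for which the study names littermates carrying the floxed allele or the Cre alone in describing the mouse line and wild-type C57Bl/6 mice in describing the tumor model. Mice were on the C57Bl/6 background, and adults of 6 to 8 weeks received 3 mg tamoxifen by gavage, the controls included. Values are TPM, transcripts per 1000000 transcripts, which are scaled for gene length, so that levels of different genes can be set side by side.

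Type I interferons signal through the receptor chains IFNAR1 and IFNAR2 to a complex that contains STAT2 and IRF9 and binds interferon-stimulated response elements (ISREs). Interferon gamma signals through IFNGR1 and IFNGR2, acts on genes through gamma-activated sequences (GAS), and induces IRF1, a further transcription factor. The division is not strict, since most of these genes respond to both kinds of interferon. Endothelial cells respond to both, and their interferon response includes guanylate-binding proteins, antigen processing genes and chemokines.

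Foxf1, the deleted gene, measured 213, 285, 296 and 331 TPM in C1 to C4 and 177, 203, 14.04 and 105 TPM in H1 to H4, so that every endFoxf1+/- library was below every control library. H3 and H4 stood apart from the other libraries. Relative to the mean of the controls, the geometric mean of 20 endothelial markers stood between 84.3% and 106% in C1 to C4, at 104% in H1, at 105% in H2, at 5.37% in H3 and at 55.9% in H4. Ptprc, which encodes CD45, reached 91.2 TPM in H3 against 2.94 to 16.5 TPM in the others, and the sums of the neutrophil, fibroblast and pericyte, and T and NK cell marker lists were also highest in H3 (423, 1318 and 81.5 TPM). Most of the fibroblast and pericyte sum in H3 was Col3a1 (556 TPM), Dcn (533 TPM) and Lum (183 TPM), and Pdgfra was also highest there. In the same list Rgs5 was lowest in H3, at 0.602 TPM against 3.71 to 18.9 TPM in the others. Col1a2 was lowest in H3 too, and Pdgfrb (5.95 TPM) was within the control range. Epithelial markers summed to 28846 TPM in C3 and 21151 TPM in H4, against 1489 to 9727 TPM in the other 6 libraries. Most of each sum was Sftpc, at 26986 TPM in C3 and 19867 TPM in H4. Epcam, Krt8, Cdh1 and Scgb1a1 were also highest in C3 and H4. Krt18 was instead highest in H3, the library with the lowest sum, at 180 TPM against 16.9 to 46.5 TPM in the others. The neutrophil marker Ly6g was listed at 0 in all 8 libraries. In such bulk samples, fewer cells of a type and less RNA per cell cannot be told apart, and the main counts and the genes given by library are therefore also given without H3 and H4.

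Promoters of a few members are shown because the gamma and type I classes differ in the response elements they are known for. RefSeq promoter windows on GRCm38.p6, from 250 bases before to 50 bases after each start, were given for 28 of the 36 genes. An ISRE core was searched as GAAANNGAAA and a GAS element as TTCNNNGAA, on both strands. The ISRE letters were in 17 of the 28 genes (60.7%), against 3.99% of all 27025 genes with a window, and the GAS letters in 10 of 28 (35.7%), against 9.55%. Of the gamma targets with a window, 5 of 6 held the ISRE letters and 4 of 6 the GAS letters, and of the type I targets 4 of 7 and 2 of 7. These are matches of letters and do not show binding. The lines give the 120 bases just before the start, 5′ to 3′ in the direction of transcription, with ISRE and GAS letters in capitals. In Ifit1 (chr19:34640769-34640888, plus strand) the capitals are 2 ISRE cores starting at -104 and -85, counted from -1 at the base before the start. In Oas3 (chr5:120777660-120777779, minus strand) they are 1 ISRE core at -75. In Isg15 (chr4:156200819-156200938, minus strand) they are 3 overlapping ISRE cores, the first at -78 and the last at -66. In Gbp7 (chr3:142530216-142530335, plus strand) they are GAS letters at -106 and -87 and an ISRE core at -53. In Igtp (chr11:58199436-58199555, plus strand) GAS letters at -45 are followed by an ISRE core at -34. In Irf1 (chr11:53769894-53770013, plus strand) they are GAS letters at -90.
Ifit1: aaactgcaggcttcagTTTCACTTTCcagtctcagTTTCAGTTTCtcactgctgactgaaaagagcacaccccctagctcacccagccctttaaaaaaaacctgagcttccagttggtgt
Oas3: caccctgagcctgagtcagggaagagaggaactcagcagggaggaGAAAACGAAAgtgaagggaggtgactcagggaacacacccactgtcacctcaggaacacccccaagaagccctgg
Isg15: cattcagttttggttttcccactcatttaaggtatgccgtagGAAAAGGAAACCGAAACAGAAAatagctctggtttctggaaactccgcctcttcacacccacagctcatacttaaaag
Gbp7: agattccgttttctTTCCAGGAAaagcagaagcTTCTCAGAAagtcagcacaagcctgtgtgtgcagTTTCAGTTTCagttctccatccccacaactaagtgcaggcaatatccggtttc
Igtp: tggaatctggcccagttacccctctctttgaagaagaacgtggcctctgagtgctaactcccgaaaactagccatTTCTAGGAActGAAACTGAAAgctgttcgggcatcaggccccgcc
Irf1: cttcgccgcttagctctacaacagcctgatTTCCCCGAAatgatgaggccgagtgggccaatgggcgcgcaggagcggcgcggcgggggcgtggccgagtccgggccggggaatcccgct

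Levels in control TECs differed widely among the 36 genes. Ifitm3, a membrane protein that restricts virus entry, averaged 4013 ± 826 TPM (SD, n = 4). The next were Bst2, which tethers virus particles to the cell surface, at 495 ± 81.7 TPM and Lgals3bp, a secreted glycoprotein, at 254 ± 56.1 TPM. Irf1 (196 ± 38.0 TPM), Igtp (176 ± 95.4), Xaf1 (172 ± 20.5), Gbp4 (161 ± 102), Gbp2 (139 ± 47.0) and Oasl2 (129 ± 20.3) followed, and in this order, from Lgals3bp down, the control ranges of neighbours overlapped. Oasl2 was the most abundant type I target. At the low end were Mx2 (7.23 ± 2.87 TPM), Mx1 (4.08 ± 0.492), Oasl1 (3.49 ± 1.15) and Oas3 (1.73 ± 0.481). Gamma targets varied more among control libraries than type I targets, with a median coefficient of variation of 37.9% against 20.8%, and 17.6% over the 14964 genes tested. The control library C1 was the highest of all 8 libraries for 8 of 8 gamma targets and 3 of 3 other immunity-related GTPases, and C3 was the lowest control for 8 of 8 gamma targets.

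In endFoxf1+/- TECs 35 of the 36 genes had a lower mean on the log2(TPM + 1) scale than in control TECs, and Oas3 alone had a higher one. The median log2 fold change was -0.76 over the 36 genes, against -0.17 over all genes tested, of which 68.0% were lower. No gene passed an adjusted p of 0.05 in the limma fit, among the 36 or among all 14964 (0.0%), and the smallest adjusted p among the 36 was 0.790. An unadjusted p under 0.05 was reached by 8 of the 36, all lower (Mx2, Gbp3, Gbp6, Gbp7, Igtp, Ifi35, Bst2 and Lgals3bp), against 2.77% of all genes tested. The 8 became 2, 1, 5 and 2 without C1, C2, C3 or C4 in turn, and 13, 10, 2 and 1 without H1, H2, H3 or H4, all of them lower. The shares of all genes lower at that p were 1.59%, 1.3%, 1.52% and 1.58% without each control and 5.95%, 7.24%, 2.35% and 2.32% without each endFoxf1+/- library. Ifi35 was the only one of the 36 whose groups did not overlap, against 2.31% of all genes tested that were lower without overlap. Scaling the libraries by the median ratio moved the median of all genes to -0.01 and the share lower to 51.0%, with 33 of the 36 genes lower and their median at -0.57. Quantile normalization gave -0.05, 55.5%, 33 of 36 and -0.59. Under both of these scalings Oas3, Mx1 and Isg15 were higher.

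**Figure D1:**
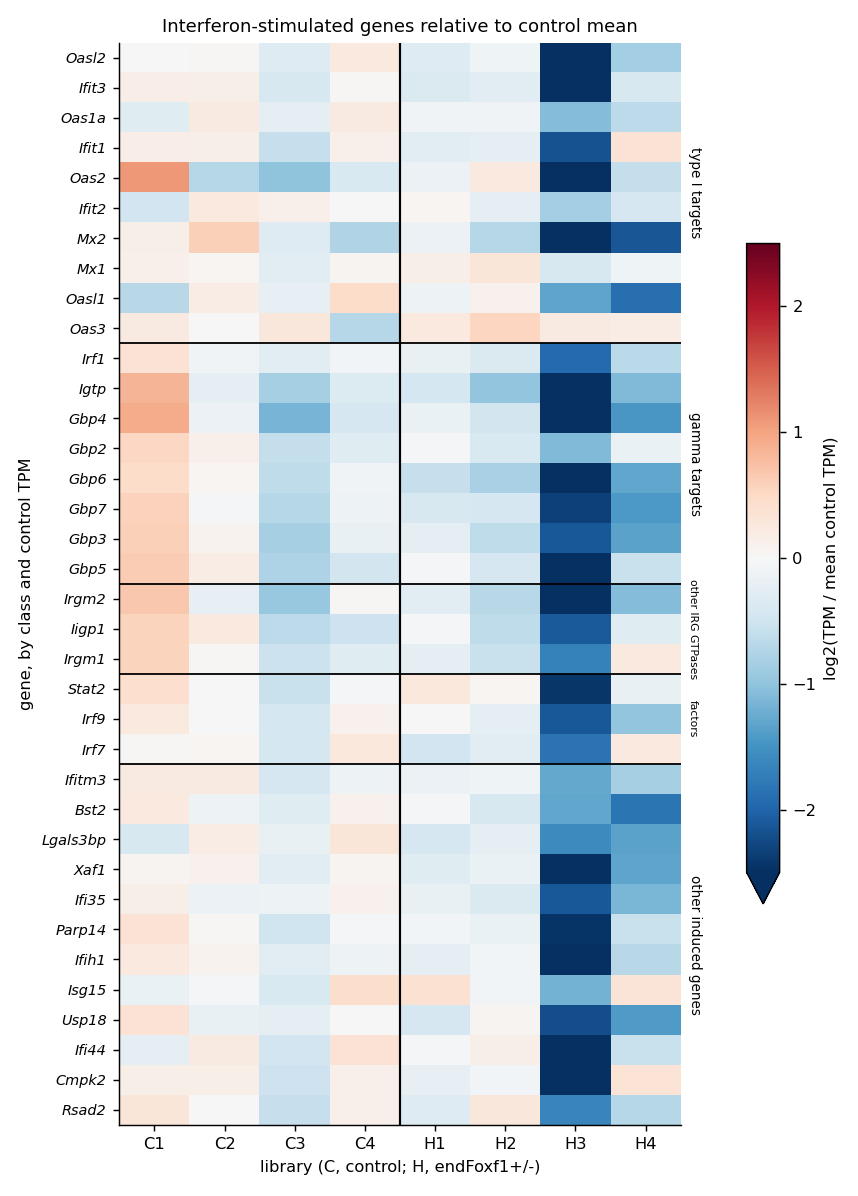
Log2 ratio of each gene's TPM to its control mean (colour, limited to -2.5 to 2.5) in the 8 libraries (columns), with genes as rows grouped by class and ordered by control TPM. H3 is the darkest blue column, with the lowest value for 33 of 36 genes, while H1 and H2 lie close to the controls and C1 is red for the gamma targets.

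The size of these differences depended on H3. H3 was the lowest of the 8 libraries for 33 of the 36 genes, H4 for Oasl1 and Bst2, and the control C4 for Oas3. Without H3, 30 of 36 genes were lower, against 48.4% of all genes, and 2 had an unadjusted p under 0.05 (Gbp6 and Ifi35), against 2.35%. The median log2 fold change of the 36 genes was then -0.31, and that of all genes 0.01. Leaving out H4 alone gave 34 of 36 lower, against 65.6%, with medians of -0.78 and -0.14. Without H3 and H4, 28 of 36 were lower, against 29.0% of all genes, and the median log2 fold change was -0.15, with all genes at 0.14. Gbp6 was then the only gene with an unadjusted p under 0.05, against 2.28% of all genes lower at that p, and the groups did not overlap for Ifi35, lower, against 4.19%, and for Mx1, higher, against 20.3%. With the endothelial marker level of each library as a covariate, 28 of 36 genes were lower, against 40.8% of all genes, and Gbp6, Ifi35 and Xaf1 had an unadjusted p under 0.05, against 1.82% of all genes lower at that p.

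**Figure D2:**
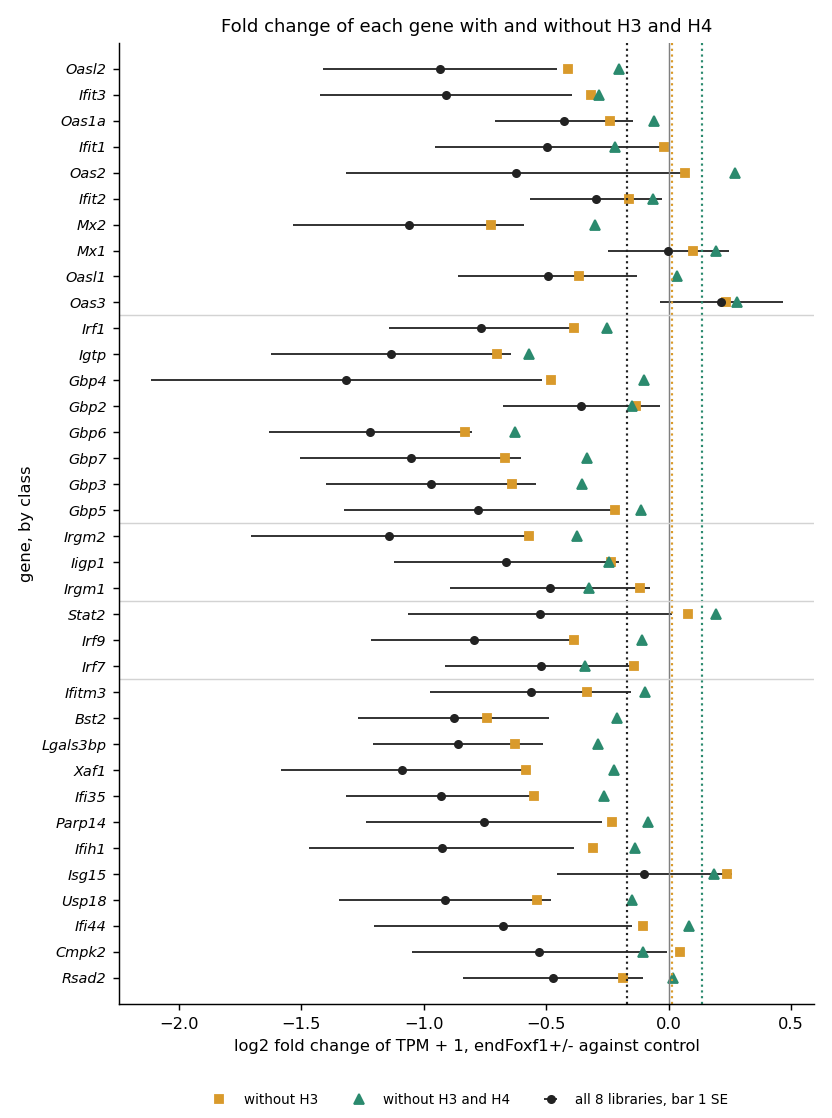
Log2 fold change of TPM + 1 in endFoxf1+/- against control for each gene, from all 8 libraries (black circles, bar 1 SE), without H3 (orange squares) and without H3 and H4 (green triangles), with dotted lines at the median of all genes in each fit. Most points move toward 0, and some past it, as the libraries are left out, and the 8 gamma targets stay below 0 in each fit.

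The gamma targets were compared with the type I targets, since the classes are known for different interferons. The mean log2(TPM + 1) of the 8 gamma targets was 7.32, 6.71, 5.995 and 6.47 in C1 to C4 and 6.46, 6.16, 4.35 and 5.72 in H1 to H4. H3 and H4 were below every control library, and H1 and H2 lay between C3 and C4. The group means were 6.62 ± 0.55 and 5.67 ± 0.93 (SD, n = 4), a difference of -0.95. For the 10 type I targets the values were 3.85, 3.87, 3.52 and 3.76 in the controls and 3.69, 3.74, 2.29 and 3.27 in H1 to H4. Again only H3 and H4 were below all controls, and the means were 3.75 ± 0.16 and 3.24 ± 0.67, a difference of -0.50. Without H3 the differences were -0.51 for gamma and -0.18 for type I targets, and without H3 and H4 they were -0.31 and -0.04. The type I level minus the gamma level was -2.87 ± 0.43 in control and -2.43 ± 0.29 in endFoxf1+/- libraries, a difference of 0.45 that fell to 0.25 without C1, the library with the highest gamma level. The ranges of this gap overlapped, from -3.47 to -2.48 in controls and from -2.77 to -2.06 in endFoxf1+/- libraries. The 1 added to TPM shrinks differences of low genes, and the type I class holds the low Mx1, Mx2, Oasl1 and Oas3. With 0.1 added instead, the differences were -0.97 for gamma and -0.57 for type I targets. With 5 added they were -0.87 and -0.36. No p is given for these levels, since the genes were chosen with results of these data known.

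**Figure D3:**
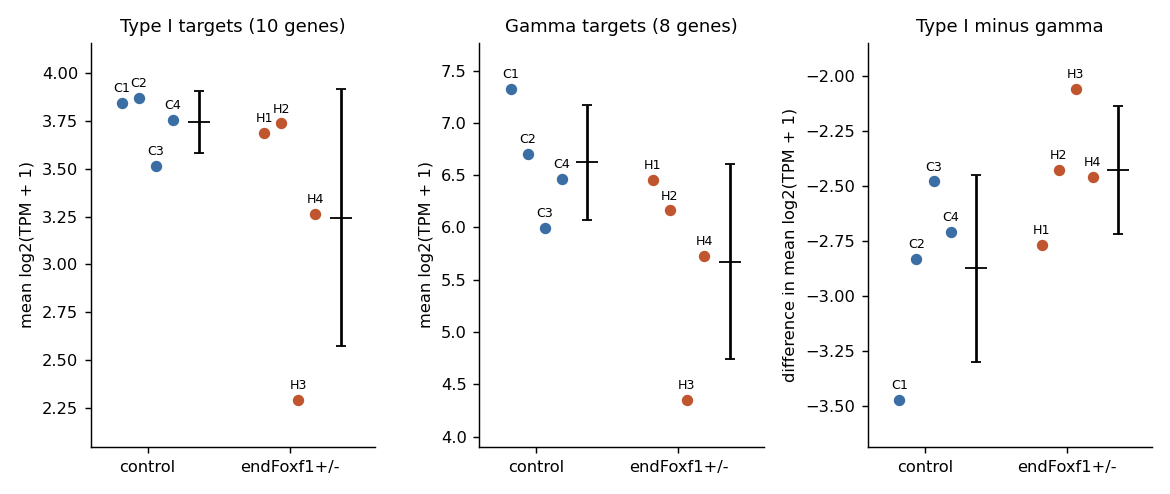
Mean log2(TPM + 1) of the type I targets (left) and gamma targets (middle) and their difference (right) in each library (points), with the group mean and SD (black bars, n = 4). H3 is the lowest point for both classes and H4 the next lowest, and C1 stands at the bottom of the right panel.

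By gene, 8 of 8 gamma targets were lower (median log2 fold change -1.01) and 4 of them had an unadjusted p under 0.05, where 68.0% of all genes were lower and 2.77% were lower at that p. Of the type I targets, 9 of 10 were lower (median -0.49) and Mx2 had an unadjusted p under 0.05. Without H3 and H4, 8 of 8 gamma targets (median -0.29) and 6 of 10 type I targets (median -0.06) were lower, against 29.0% of all genes. Under median-ratio scaling and under quantile normalization of all 8 libraries, 8 of 8 gamma targets and 8 of 10 type I targets were lower, against 51.0% and 55.5% of all genes. The difference between the classes was not tested.

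The guanylate-binding proteins (GBPs) are large GTPases that assemble on pathogen membranes. Gbp6 (chr5:105270702-105293698, minus strand) measured 142, 107, 66.0 and 96.5 TPM in C1 to C4 and 69.0, 58.8, 18.2 and 41.6 TPM in H1 to H4. H2, H3 and H4 were below all controls, and H1 was just above C3. The log2 fold change was -1.22 ± 0.41 (SE; limma p = 0.0158, adjusted p = 0.790; exact permutation p = 0.0571). With H3 and H4 left out it was -0.63. Of the stretches of 50 bases in Gbp6 transcripts, 70.7% also occur in transcripts of other genes, mainly the gene model Gm43302, so its value may be shared with them.

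Gbp7 (chr3:142530342-142550149, plus strand), whose promoter is shown above, measured 146, 96.4, 59.6 and 89.8 TPM in C1 to C4 and 74.7, 72.9, 19.4 and 36.3 TPM in H1 to H4. H1 and H2 lay within the control range and H3 and H4 below it. Its log2 fold change was -1.05 ± 0.45 (limma p = 0.0432; exact permutation p = 0.114) and -0.33 without H3 and H4. Gbp3 (chr3:142560026-142573209, plus strand), its neighbour in the same cluster, measured 83.2, 58.6, 31.1 and 48.7 TPM in C1 to C4 and 46.5, 35.6, 12.7 and 21.9 TPM in H1 to H4. The same libraries were below the controls, and its log2 fold change was -0.97 ± 0.43 (limma p = 0.0485; exact permutation p = 0.114) and -0.35 without H3 and H4. Gbp4, with a log2 fold change of -1.32, was the farthest from 0 of the 36 genes, yet its SE was 0.80, its control values ran from 71.5 to 307 TPM, and its fold change was -0.10 without H3 and H4. Gbp5 (-0.78 ± 0.55) and Gbp2 (-0.36 ± 0.32) were lower by less than 2 SE.

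Igtp, also called Irgm3, is an immunity-related GTPase that acts on vacuoles of intracellular pathogens. Igtp (chr11:58199556-58207591, plus strand) measured 315, 149, 99.03 and 139 TPM in C1 to C4 and 130, 88.5, 28.6 and 81.8 TPM in H1 to H4. H2, H3 and H4 were below all controls, and C1 was far above the other 7 libraries. The log2 fold change was -1.13 ± 0.49 (limma p = 0.0450; exact permutation p = 0.0571) and -0.57 without H3 and H4. Irgm2 (chr11:58199618-58222782, plus strand) overlaps Igtp on the same strand, and 11.8% of the stretches of 50 bases in Igtp transcripts also occur in Irgm2. It measured 177, 96.8, 58.3 and 114 TPM in C1 to C4 and 91.7, 69.2, 13.5 and 52.6 TPM in H1 to H4, with H3 and H4 below the controls. Its log2 fold change was -1.14 ± 0.57 (limma p = 0.0736; exact permutation p = 0.114) and -0.37 without H3 and H4. Iigp1 (-0.66 ± 0.46) and Irgm1 (-0.48 ± 0.41) were lower within 2 SE, and Irgm1 was higher in H4 (76.2 TPM) than in 3 of the 4 controls.

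Irf1 encodes the transcription factor that carries much of the response to interferon gamma. It measured 251, 185, 162 and 187 TPM in C1 to C4 and 172, 153, 50.9 and 122 TPM in H1 to H4 (chr11:53770014-53778374, plus strand). H1 was within the control range and the other 3 endFoxf1+/- libraries were below it. Irf1 differed by a log2 fold change of -0.77 ± 0.38 (limma p = 0.0697; exact permutation p = 0.0571), and -0.25 without H3 and H4.

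Among the type I targets, Oasl2, an oligoadenylate synthetase-like protein, measured 130, 132, 103 and 152 TPM in C1 to C4 and 103, 120, 21.7 and 71.6 TPM in H1 to H4 (chr5:114896936-114912234, plus strand). H1 was at the level of C3 and H2 within the control range. Its log2 fold change was -0.93 ± 0.48 (limma p = 0.0809; exact permutation p = 0.0857) with all libraries and -0.20 without H3 and H4. Mx2, a dynamin-like GTPase that blocks viruses, measured 7.97, 10.9, 5.79 and 4.29 TPM in C1 to C4 and 6.54, 4.40, 0.879 and 1.64 TPM in H1 to H4 (chr16:97535308-97560900, plus strand). H1 and H2 were within the control range, and the log2 fold change was -1.06 ± 0.47 (limma p = 0.0495; exact permutation p = 0.143) and -0.30 without H3 and H4. The annotation gives Mx2 as a polymorphic pseudogene. Its relative Mx1 was level, with 4.08 ± 0.492 TPM in control and 4.11 ± 0.858 TPM in endFoxf1+/- libraries.

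The IFIT proteins bind viral RNA, and the OAS proteins make the second messenger that activates RNase L. Ifit3 (-0.91 ± 0.51), Ifit1 (-0.49 ± 0.46) and Ifit2 (-0.30 ± 0.27) were each lower within 2 SE. Ifit1, with its pair of ISRE cores shown above, was highest of all libraries in H4, at 25.4 TPM, and lowest in H3, at 4.36 TPM. Oas2 (-0.62 ± 0.69), Oasl1 (-0.49 ± 0.37) and Oas1a (-0.43 ± 0.28) were also lower within 2 SE. The sign of Oas2 rested on H3, with 0.07 without H3 and 0.27 without H3 and H4. Oasl1 was at 0.03 and Oas1a at -0.06 without H3 and H4. Oas3 measured 2.01, 1.73, 2.11 and 1.05 TPM in C1 to C4 and 2.05, 2.496, 2.01 and 1.97 TPM in H1 to H4, a log2 fold change of 0.21 ± 0.25, and of 0.28 without H3 and H4. In H3, where the other members were reduced, Oas3 stood at 116% of its control mean. Ifit3 and Oas1a share 51.2% and 57.6% of their stretches of 50 bases with Ifit3b and Oas1g, so their values may be divided with these copies.

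STAT2 and IRF9 are parts of the complex that type I interferon activates, and IRF7 amplifies the production of type I interferon. Stat2 measured 146, 110, 74.5 and 106 TPM in C1 to C4 and 130, 113, 20.3 and 95.4 TPM in H1 to H4 (chr10:128270559-128292849, plus strand). Only H3 was outside the control range. For Stat2 the log2 fold change was -0.53 ± 0.54 (limma p = 0.354; exact permutation p = 0.600) with all libraries, 0.08 without H3 and 0.19 without H3 and H4, so that its sign rested on H3. Irf9 (-0.79 ± 0.42) and Irf7 (-0.52 ± 0.39) were lower within 2 SE, and Irf7 in H4 (24.0 TPM) was as high as in the highest control (24.3 TPM).

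Among the other induced genes, 12 of 12 were lower (median log2 fold change -0.81), against 68.0% of all genes, and 3 had an unadjusted p under 0.05, against 2.77% lower at that p. Leaving out H3 and H4 gave 9 of 12 lower (median -0.12), against 29.0%, and none with an unadjusted p under 0.05. Ifi35, an interferon-induced leucine zipper protein, measured 100, 82.2, 83.4 and 98.5 TPM in C1 to C4 and 80.4, 70.6, 20.9 and 41.3 TPM in H1 to H4 (chr11:101448407-101458698, plus strand). Every endFoxf1+/- library was below every control library, although H1 was only just below C2. The log2 fold change was -0.93 ± 0.39 (limma p = 0.0396, adjusted p = 0.790), and the exact permutation p of 0.0286 is the smallest that 70 assignments of 4 libraries can give. With H3 and H4 left out it was -0.27, still without overlap.

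Lgals3bp measured 193, 287, 222 and 314 TPM in C1 to C4 and 190, 219, 84.1 and 99.8 TPM in H1 to H4 (chr11:118392751-118402092, minus strand). H2 was within the control range and H1 just below C1. The resulting log2 fold change was -0.86 ± 0.35 (limma p = 0.0346; exact permutation p = 0.0571) and -0.29 without H3 and H4. Bst2, which is also a marker of plasmacytoid dendritic cells, measured 589, 455, 403 and 531 TPM in C1 to C4 and 477, 375, 200 and 139 TPM in H1 to H4 (chr8:71534255-71537456, minus strand). H1 was within the control range and the others below it, with H4 the lowest. Its log2 fold change was -0.88 ± 0.39 (limma p = 0.04996; exact permutation p = 0.0857) and -0.21 without H3 and H4. Ifitm3 measured 4673, 4697, 2993 and 3688 TPM in C1 to C4 and 3634, 3738, 1660 and 2254 TPM in H1 to H4 (chr7:141009586-141010770, minus strand). H1 and H2 were close to C4, and the log2 fold change was -0.56 ± 0.41 (limma p = 0.201; exact permutation p = 0.143) and -0.10 without H3 and H4.

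The other 8 induced genes did not reach an unadjusted p of 0.05. Xaf1, an inhibitor of the apoptosis inhibitor XIAP, had a log2 fold change of -1.09 ± 0.49 and Usp18, which removes ISG15 from proteins and damps receptor signaling, one of -0.91 ± 0.43. Ifih1, the RNA sensor MDA5, had one of -0.93 ± 0.54, Parp14 one of -0.76 ± 0.48 and Ifi44 one of -0.68 ± 0.53. Cmpk2 (-0.53 ± 0.52) and Rsad2, the antiviral enzyme viperin (-0.47 ± 0.37), were lower within 2 SE. Isg15, a ubiquitin-like modifier whose promoter held 3 ISRE cores, differed by -0.10 ± 0.36, with 32.4 ± 8.09 TPM in control and 32.0 ± 12.9 TPM in endFoxf1+/- libraries. Without H3, Isg15 turned to 0.24 and Cmpk2 to 0.05, and without H3 and H4 they were at 0.19 and -0.11. H1 and H4 were near the highest control for Isg15, at 42.5 and 40.3 TPM against 43.8 TPM in C4.

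In H3, endothelial transcripts were lower relative to control than interferon-stimulated transcripts. The median of the 36 genes in H3 was 22.5% of the control mean, that of the 20 endothelial markers 5.43% and that of all tested genes 54.3%. In H3, 35 of the 36 genes stood above the highest endothelial marker, which was at 8.20% of its control mean. Type I targets were at 31.0% and gamma targets at 18.8%. In H4 the medians were 70.2% for type I targets, 43.6% for gamma targets, 66.4% for endothelial markers and 81.0% for all tested genes. In H1 and H2 the type I targets were at 91.2% and 93.9%, the gamma targets at 85.7% and 73.8%, the endothelial markers at 107% and 109% and all tested genes at 110% and 109%. The gamma targets were also below the type I targets in the controls C2 (101% against 111%), C3 (59.5% against 81.1%) and C4 (84.6% against 103%), and C1 (149.7% against 109.6%) was the exception, so this order did not separate the groups. The part of endothelial content in these values was not tested beyond the fits without H3 and H4 and with the covariate.

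**Figure D4:**
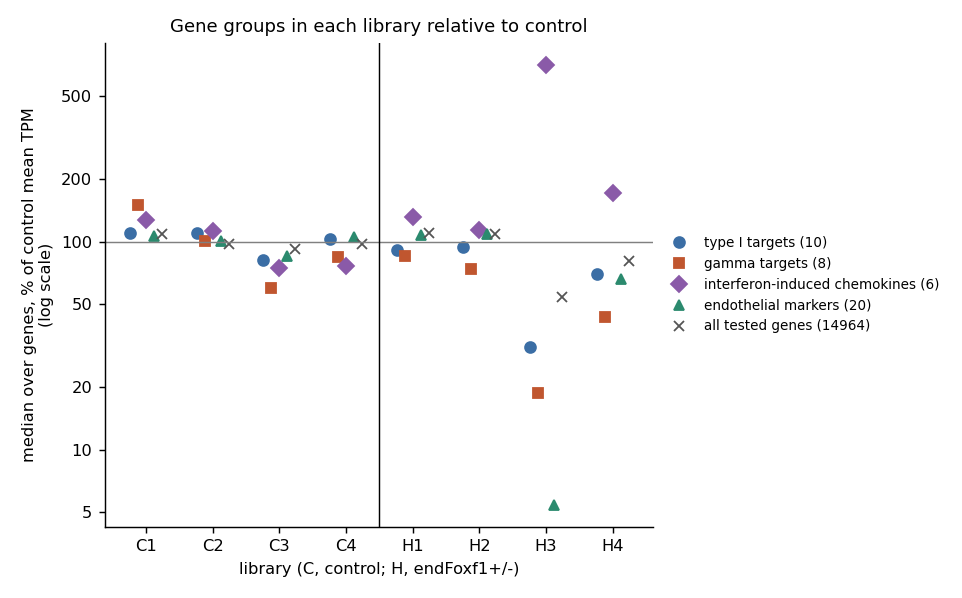
Median over the genes of each group of TPM as a percentage of the control mean (log axis) in the 8 libraries. The gamma targets lie below the type I targets in 7 of the 8 libraries, controls C2 to C4 included, and above them in C1, the endothelial markers are lowest in H3 at 5.43%, and the interferon-induced chemokines reach 709% in H3.

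Genes upstream of the 36 were read from the same fit. None of 21 interferon ligand genes reached the minimum level for testing, and Ifnb1, which encodes interferon beta, was listed at 0 in all 8 libraries. Ifng, the interferon gamma gene of T and NK cells, was listed at 0 in C1, C4 and H4, and measured 0.165 and 1.58 TPM in C2 and C3 and 0.442, 0.366 and 4.97 TPM in H1 to H3. Its highest value was thus in H3, the library with the highest T and NK cell marker sum. All 5 of the tested receptor genes were lower, against 68.0% of all genes, with an unadjusted p above 0.05 each. Ifnar1 had a log2 fold change of -0.19 ± 0.34, Ifnar2 of -0.43 ± 0.29, Ifngr1 of -0.46 ± 0.29 and Ifngr2 of -0.46 ± 0.31. The same 4 ran from -0.08 to 0.27 without H3 and H4.

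The receptors pass the signal to Janus kinases. Jak1 (-0.15 ± 0.32), Jak2 (-0.15 ± 0.28) and Tyk2 (-0.62 ± 0.36) were within 2 SE of 0. Without H3 and H4 they differed by 0.16, -0.01 and -0.05 on the log2 scale. Under median-ratio scaling 4 of the 5 receptor genes were lower, against 51.0% of all genes, and without H3 and H4 2 of the 5 were lower, against 29.0%.

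**Figure D5:**
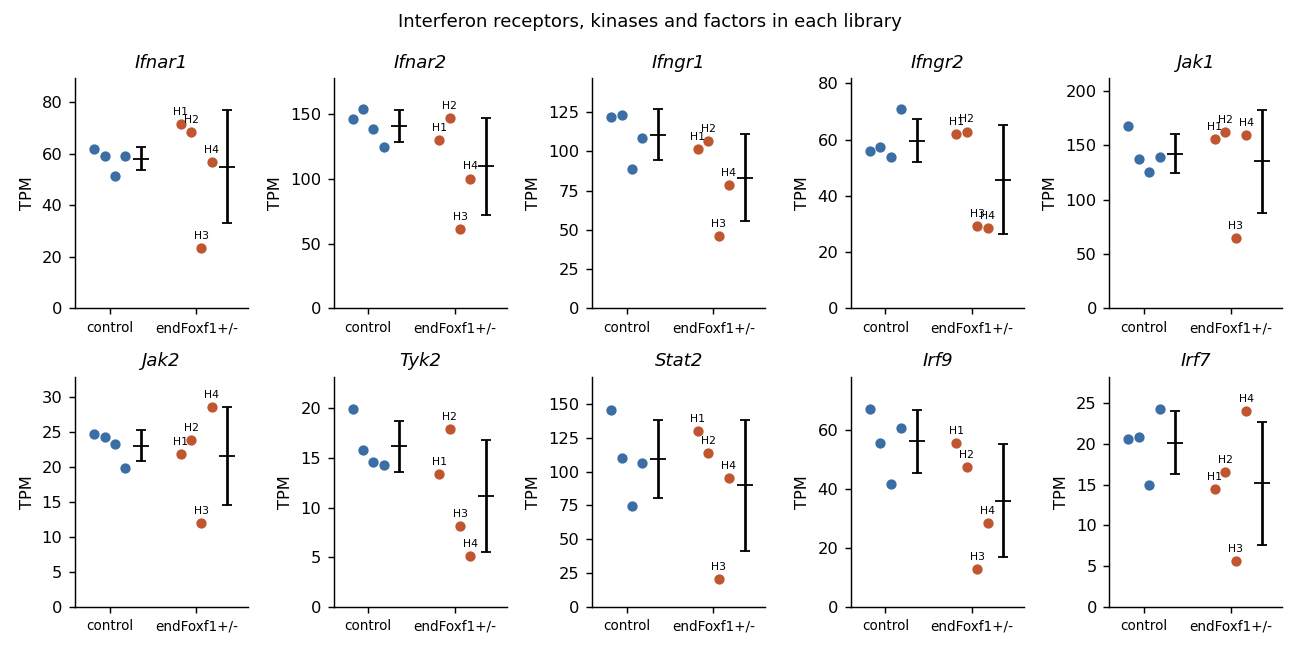
TPM of 4 interferon receptor genes, 3 Janus kinases, Stat2, Irf9 and Irf7 in each library (points, axes from 0), with the group mean and SD (black bars, n = 4). Of the endFoxf1+/- libraries H1 and H2 lie nearest to the controls in most panels, and H3 is the lowest or next to lowest point.

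Among the sensors of foreign nucleic acid and their adaptors, 9 of 13 tested genes were lower, near the 68.0% of all genes, and 5 of 13 without H3 and H4, against 29.0%. With all libraries 1 of the 13 was lower with an unadjusted p under 0.05, against 2.77% of all genes. This was Mavs, the mitochondrial adaptor of the RNA sensors, at 24.7, 32.6, 33.9 and 33.1 TPM in C1 to C4 and 23.3, 18.9, 12.1 and 15.3 TPM in H1 to H4. Its groups did not overlap, as for 2.31% of all genes in that direction, and the log2 fold change was -0.83 ± 0.25 (limma p = 0.00888; exact permutation p = 0.0286) and -0.54 without H3 and H4. Of 5 other IRF genes tested, 3 were lower, and of 10 genes that restrain the response or act on its RNAs 7 were lower, both near the 68.0% of all genes, and none of either had an unadjusted p under 0.05. The 7 became 3 of 10 under median-ratio scaling, against 51.0% of all genes. Without H3 and H4 the count was 7 of 10, against 29.0%, and Isg20 was lower with an unadjusted p under 0.05, against 2.28%. Of the 5 IRF genes 2 were then lower.

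Further targets outside the 36 were counted in the same fit. Of 36 other type I targets tested, 29 were lower, against 68.0% of all genes, none with an unadjusted p under 0.05, against 2.77%, and 2 were higher at that p, against 2.82%. The majority turned without H3 and H4, with 15 of 35 tested lower and 20 higher (median 0.08), against 29.0% and 71.0% of all genes. The 2 genes higher at that p with all libraries were Ifi204, a DNA-binding protein of myeloid cells (log2 fold change 1.33 ± 0.44), and Slfn8 (0.89 ± 0.26), and both were higher without overlap, as were 2.73% of all genes. Ifi204 was highest in H3 (32.6 TPM). The macrophage and monocyte markers also had their highest sum there, 8708 TPM against 1461 to 5062 TPM in the others. Most of that sum was Lyz2, at 6870 TPM in H3 and 4955 TPM in C3. The other markers of that list were higher in H1 and H2 than in every control, with C1qa at 23.2 and 22.1 TPM against 3.19 to 5.35 TPM. The log2 fold change of Ifi204 was 0.93 without H3 and 1.10 without H3 and H4, each with an unadjusted p under 0.05. The part of macrophages and monocytes in these values was not tested. Parp10, 1 of these 36 other type I targets, was lower without overlap (-0.83 ± 0.40), near the 2.31% of all genes, and differed by -0.23 without H3 and H4. Of 18 other gamma targets tested, 16 were lower, against 68.0% of all genes, and 5 had an unadjusted p under 0.05, against 2.77% lower at that p. The 5 became 2 without H3 and 2 without H3 and H4, against 2.35% and 2.28% of all genes lower at that p, and 15 of 18 were lower in both fits, against 48.4% and 29.0%. The 5 genes with all libraries were Gbp8 (-1.36 ± 0.55), Ifi47 (-1.16 ± 0.47), Cd274, which encodes PD-L1 (-0.90 ± 0.27), Ido1, the tryptophan-degrading enzyme (-1.65 ± 0.72), and Batf2 (-1.17 ± 0.46).

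Cd274 measured 58.2, 56.4, 43.7 and 52.5 TPM in C1 to C4 and 42.0, 31.9, 19.5 and 22.2 TPM in H1 to H4, and its groups did not overlap. On the log2 scale it differed by -0.50 without H3 and H4. Antigen processing genes, many of which are induced by interferon gamma through IRF1 and NLRC5, were lower in 11 of 11, against 68.0% of all genes, with an unadjusted p under 0.05 for the immunoproteasome subunits Psmb8 (-0.88 ± 0.37), Psmb9 (-1.16 ± 0.42) and Psmb10 (-1.04 ± 0.41), where 2.77% of all genes were lower at that p. Of the 11, 10 were lower without H3 and H4, against 29.0% of all genes, and none then had an unadjusted p under 0.05.

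Interferon-induced chemokines had the opposite sign. All 6 tested were higher, against 32.0% of all genes, with an unadjusted p under 0.05 for Ccl7 (log2 fold change 2.09 ± 0.66) and Ccl2 (1.78 ± 0.74), which attract monocytes, against 2.82% higher at that p. Without H3, 4 were higher and 2 lower, against 51.6% of all genes higher. Ccl7 measured 4.79, 2.93, 2.52 and 4.68 TPM in C1 to C4 and 11.2, 11.3, 96.2 and 9.245 TPM in H1 to H4, so that the groups did not overlap, and Ccl2 reached 166 TPM in H3 against 10.9 to 27.1 TPM in H1, H2 and H4. H3 was also the library with the highest macrophage and monocyte marker sum, 8708 TPM. All markers of that list but Lyz2 were also higher in H1 and H2 than in every control. C1qb measured 72.4 and 82.8 TPM in H1 and H2, against 15.2 to 31.2 TPM in the controls. The part of these cells in the chemokine values was not tested. Without H3 and H4, Ccl7 was 1.41 and Ccl2 0.62 higher on the log2 scale, and 5 of the 6 were higher, against 71.0% of all genes. Cxcl9 (0.43), Cxcl10 (0.57), Cxcl11 (0.05) and Ccl5 (0.69), which attract T cells, had an unadjusted p above 0.05 each.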

How the data were processed

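RNA-seq of sorted CD45-CD31+ cells was analysed for 4 control and 4 endFoxf1+/- libraries, grouped by the genotype in the labels. The authors deposited TPM per gene symbol for each library (33641 symbols, summing to 1000000). Per the labels, reads were processed with TopHat, Cufflinks, Subread and DESeq2 on GRCm38/mm10. The tool and annotation behind the TPM are not given in the sources used here. TPM keep no read numbers, so the depth is unknown and only replicate spread measures precision. The deposited design gives 4 mice per group, the legend of a plot of this RNA-seq gives 3, and neither ties a library to a mouse, so p-values measure only the spread between these libraries. The authors' DESeq2 test needs counts and was not repeated.

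TPM were tested as log2(TPM + 1) with limma 3.58.1 in R 4.3.3 (lmFit, eBayes with a trend, two-sided) on the 14964 genes that reached a TPM of 1 in 4 or more libraries, with Benjamini-Hochberg adjustment over all of them and a threshold of 0.05. Fold changes on this scale understate changes of low genes. Exact two-sided permutation tests used all 70 assignments of 4 libraries, with a smallest p of 0.0286. The script was tested on simulated data. Class levels are means of log2(TPM + 1) over genes, with no test. Coordinates are from GENCODE vM21, and stretches of 50 bases were compared among its transcripts. Promoter windows are from RefSeq.

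The genes, their classes and the pathway lists were chosen with earlier results of these data known. Genes given by library have an unadjusted p under 0.05, no overlap between groups, or the highest mean TPM of their class. Oas3 was added after its values were seen, as the only gene with a higher mean on the log2(TPM + 1) scale in endFoxf1+/- libraries. The pathway genes named were the receptor chains, kinases, Ifnb1, Ifng and those past the same limits, except 1 gene that is not reported here. Other genes named in the text were added with their values known. Other settings tried were pseudocounts of 0.1 and 5, a minimum TPM of 5, all genes without a filter, quantile and median-ratio scaling, leaving out the gene model Gm20594 and mitochondrial genes, eBayes without a trend, array weights, endothelial markers as a covariate, wider classes, and libraries left out.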

Additional observations from a re-analysis of the deposited data

Results flagged for a closer look

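Within a group of 4 libraries, 6 of the 72 sets of values (36 genes in both groups) had 1 library far from the other 3, where chance alone gives about 1 in 20. In the controls this was C3, the lowest, for Ifit1 (13.3 TPM), Xaf1 (141 TPM) and Cmpk2 (12.1 TPM). In the endFoxf1+/- group it was H3, the lowest, for Ifit3 (6.18 TPM) and Stat2 (20.3 TPM), and H2, the highest, for Oas3 (2.496 TPM).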

How the results depend on the processing

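No paired analysis was possible because every library's label carries a number of its own, and the numbers 1 to 4 used here only name libraries and pair none. An adjusted p under 0.05 was reached by 0 of the 36 genes under every alternative that was run. The 8 genes with an unadjusted p under 0.05 became 3 with array weights, 3 with the endothelial covariate, 13 with median-ratio scaling, 5 with a minimum TPM of 5, 2 with no filter, 5 with a pseudocount of 0.1 and 1 without H3 and H4, and 1 to 13 when 1 library was left out. The shares of all genes at that p in either direction were 19.2%, 7.22%, 6.74%, 4.76%, 3.43%, 5.33% and 12.2% in the first 7 of these, against 5.59% with the settings of the report. The median log2 fold change of the 36 genes (-0.76) was -0.17 with array weights, -0.18 with the covariate and -0.15 without H3 and H4, and -0.98 to -0.31 with 1 library left out. The median of all genes (-0.17) moved too, to 0.13, 0.07 and 0.14 in the first 3 of these. The difference of the type I level (-0.50) was -0.0353 and that of the gamma level (-0.95) was -0.31 without H3 and H4. With 1 library left out, the type I difference ran from -0.67 to -0.18 and the gamma difference from -1.21 to -0.51. The log2 fold change of Stat2 (-0.53) turned to 0.21 with array weights, 0.22 with the covariate and 0.19 without H3 and H4, and ran from -0.80 to 0.0775 with 1 library left out. The cause was not tested. Array weights gave H3 a weight of 0.0643 and H4 of 0.178, against 1.17 to 3.85 for the others. The share of all genes that were lower was 30.7% with array weights and 44.5% with no filter, against 68.0%. Of the other values computed under these alternatives, 102 for classes and counts and 243 for single genes kept their direction and side of the threshold or stayed within the spread. The single genes here are those of the 36 given by library, without Oas3. Among the rest of the 36, Mx1 was lower in 7 of 19 fits, Isg15 in 13 of 20 and Oas2 in 16 of 20, the main fit included. Ifit1, Oasl1, Rsad2, Ifi44 and Cmpk2 also changed sign in some fits. The depth of the libraries is unknown, and no detection limit could be set for genes at a few TPM such as Oas3, Oasl1 and Mx1.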
